A study of Drosophila melanogaster with 18 samples.

Results

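The apoptosis pathway of the fly was followed through 9 of its genes in the larval fat body, from the early wandering larva to the white prepupa. The 9 genes were the death activators reaper (rpr, CG4319), head involution defective (hid, CG5123), grim (CG4345) and sickle (skl, CG13701), the apical caspase Dronc (CG8091), its adapter Dark (CG6829), the effector caspases Drice (CG7788) and Dcp-1 (CG5370), and the caspase inhibitor Diap1 (CG12284). They were taken by CG number from the 16438 genes of the count table, and were chosen with earlier results of these data known. Of the 9 genes, 6 passed the filter of a mean of at least 15 counts over the 18 libraries, as did 12460 genes in all, and rpr, grim and skl did not.

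In Drosophila, caspases are made as inactive precursors and are held in check by Diap1, which binds Dronc and the effector caspases and marks them with ubiquitin. The activator proteins carry a short amino-terminal motif that binds Diap1 and releases the caspases, and Dark then assembles Dronc into the apoptosome, which cleaves Drice and Dcp-1. Pulses of the steroid hormone ecdysone drive the loss of larval tissues during metamorphosis. Larval salivary glands are removed some hours after pupariation with the help of caspases and autophagy, and the larval midgut mainly through autophagy, whereas larval fat body cells detach, remodel and persist through pupal life.

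RNA had been sequenced from fat bodies dissected from female larvae or prepupae of wild-derived strains that carried no transgene and received no treatment. In the Dutch population (NL) fat bodies of 12 isofemale strains were pooled, and in the Zambian population (ZI) those of 10 strains. Early and late wandering larvae of the last instar were told apart by the colour of the gut after feeding on dyed medium, and white prepupae by the formed puparium and the end of movement. The 2 populations at 3 stages made 6 groups with 3 libraries in each. The paper calls these biological replicates, each a pool of dissected fat bodies from every strain of the population. Because nothing states that replicates of a group came from separate cultures, p-values measure the spread between these libraries.

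Total counts ran from 14998610 to 37250385 per library. The 8 fat body markers, mostly larval serum and fat body proteins, summed to between 151754 and 257883 TPM (counts divided by gene length and scaled to a fixed library total), and the tissue label therefore fitted its markers. The fat body sum itself was lower in prepupae, at 151754 to 172768 against 231055 to 243216 TPM in NL early libraries and 170477 to 181907 against 251088 to 257883 TPM in ZI. By group mean Fbp1 and Fbp2 were higher in prepupae of both populations, and the other fat body markers were lower. The sum of 7 hemocyte markers was lower in prepupal than in early libraries. It was 22.0 to 38.2 against 63.7 to 79.5 TPM in NL and 17.8 to 21.6 against 69.4 to 89.3 TPM in ZI. Among them NimC1 and lz were higher in prepupae by group mean, and the others were lower. The sum of 6 muscle markers was lower in prepupae too. It was 23.9 to 65.7 against 88.2 to 92.2 TPM in NL and 18.3 to 20.1 against 82.4 to 98.6 TPM in ZI. The sum of the 9 salivary gland markers was also lower in prepupae of both populations, at most 11.9 TPM there. By group mean Sgs1 and fkh were higher in prepupae of both populations, ng1 in NL only and ng2 in ZI only, and the others were lower. The sum of 6 neuron markers was higher in prepupae. It was 110 to 127 against 56.9 to 57.7 TPM in NL and 163 to 173 against 71.6 to 77.9 TPM in ZI. Most of this sum was Syt1, with group means of 49.8 and 109 TPM in NL early and prepupal libraries and 64.6 and 156 TPM in ZI. By group mean elav was lower in prepupae, at 1.87 against 2.42 TPM in NL and 1.93 against 2.69 TPM in ZI, and the others were higher. The sum of 4 tracheal markers was higher in prepupae too. It was 14.3 to 20.6 against 4.92 to 8.31 TPM in NL and 17.9 to 20.8 against 7.85 to 9.49 TPM in ZI. The sum of the 7 imaginal disc markers was higher in prepupae of both populations as well, at 31.2 to 35.9 against 16.6 to 28.2 TPM. Most of that sum was ap, with group means of 16.5 and 27.2 TPM in NL early and prepupal libraries and 17.1 and 24.6 TPM in ZI. No marker of these lists was at 0 in every library. In bulk tissue a change in the share of a cell type and a change in RNA per cell cannot be told apart, and the part of these markers in the results that follow was not tested. Among replicates, NL late replicate 1 stood apart from the other two, with a mean chi-square per gene of 62.1 and 93.6 against replicates 2 and 3, which differed from each other by 11.5. Results that rest on this library are given with and without it.

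The activators lie together on chromosome arm 3L of the release 6 genome (BDGP6), all on the minus strand. In order, hid occupies 18167745 to 18185641, grim 18302719 to 18304417, rpr 18397535 to 18398435 and skl 18438561 to 18439942, so that the cluster spans 272 kb. Dronc (9968479 to 9971002, plus strand) and Diap1 (16038410 to 16051034, minus strand) are on 3L as well, whereas Drice is on 3R (29799658 to 29801584, plus strand) and Dark (17020027 to 17026703) and Dcp-1 (23551313 to 23553547) are on the plus strand of 2R. Reads were counted over all exons of a gene, so the values do not separate coding from untranslated parts.

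In level per length, the inhibitor stood far above the activators. Diap1 averaged 103 TPM over the 18 libraries, above 96.3% of the 16438 genes of the count table. It was followed by Drice with 30.3 TPM, Dronc with 26.7 TPM and Dark with 12.8 TPM. Dcp-1 averaged 3.07 TPM and hid 0.946 TPM, and the 3 remaining activators lay lower still, with rpr at 0.595 TPM, skl at 0.338 TPM and grim at 0.149 TPM. The table gives Diap1 a length of 2304 bases although its annotated exons cover 3143 bases, and on the longer length its mean was 75.8 TPM, still the highest of the 9. Diap1 exceeded Drice in all 18 libraries, Dark exceeded Dcp-1 in 18 and Dcp-1 exceeded hid in 18. The order of neighbours in the rest of the ranking was less even, since Drice exceeded Dronc in 14 libraries, Dronc exceeded Dark in 15, hid exceeded rpr in 15, rpr exceeded skl in 14 and skl exceeded grim in 16.

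**Figure D1:**
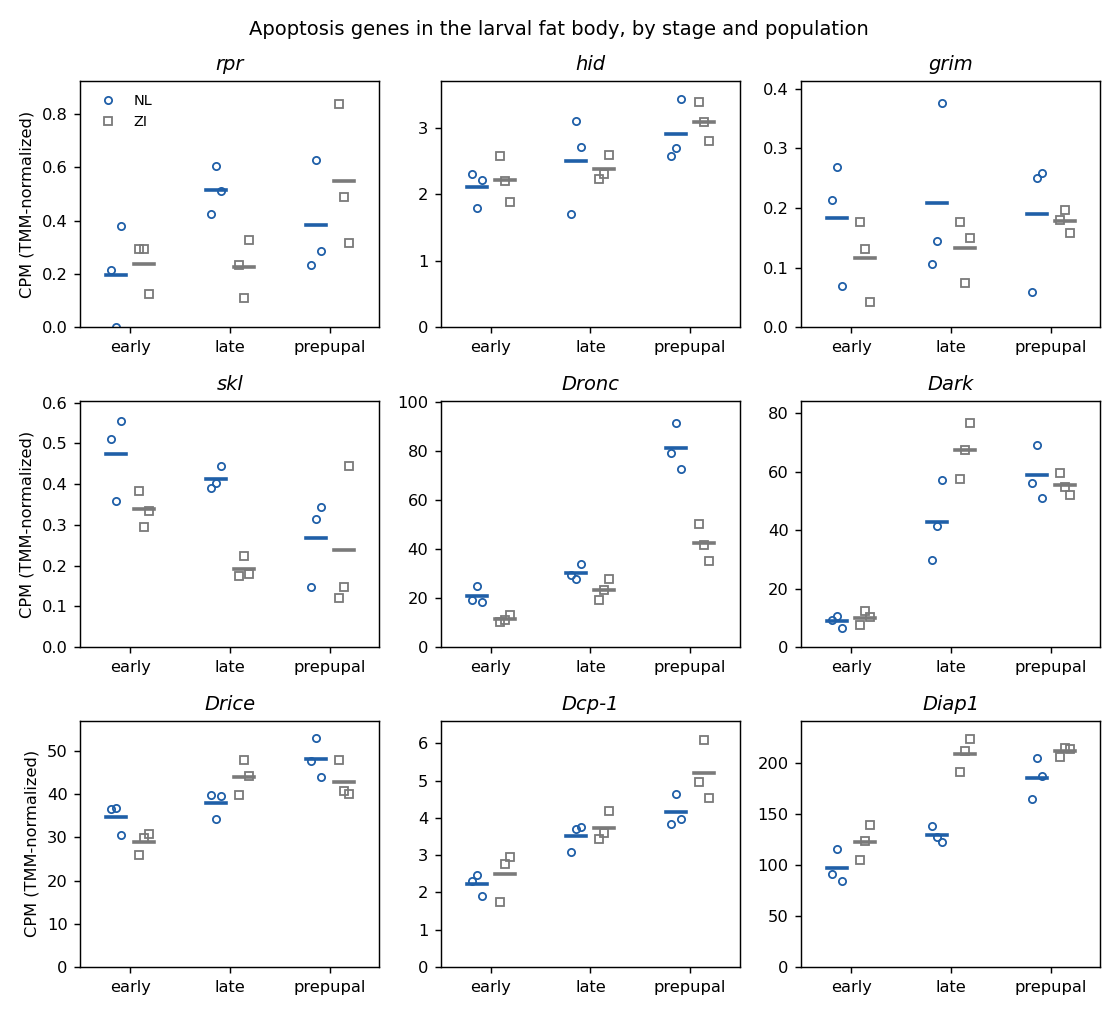
CPM (counts scaled to library size with TMM factors, linear axes from 0) of the 9 genes in each of the 18 libraries, by stage, with NL as blue circles, ZI as grey squares and group means as bars. Dronc, Dark, Drice, Dcp-1 and Diap1 had every prepupal library above every early library of the same population, whereas rpr, grim and skl stayed under 1 CPM throughout.

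The activators rpr, grim and skl were at the edge of detection at all stages. Raw counts per library ran from 0 to 28 for rpr, from 1 to 11 for grim and from 3 to 17 for skl. The single count of 0, of rpr in NL early replicate 2, allows up to 3 counts, or 0.135 CPM at the depth of that library. Summed over 3 libraries, rpr had 16, 48 and 28 counts in NL early, late and prepupal, and 22, 22 and 50 in ZI. Skl had 36, 38 and 22 counts in NL and 30, 18 and 24 in ZI, and grim between 11 and 19 counts in every group.

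With no filter on low counts, none of the 3 passed an adjusted p under 0.05 in any comparison by edgeR's quasi-likelihood test. The estimates nearest to the threshold were those of skl for NL over ZI at the late stage, 1.04 ± 0.48 (SE) on the log2 scale (adjusted p = 0.117), and of rpr from early to late in NL, 1.25 ± 0.61 (adjusted p = 0.128). From late to prepupal rpr changed by 1.21 ± 0.58 in ZI (adjusted p = 0.207) and by -0.54 ± 0.57 in NL (adjusted p = 0.678), and the difference between these changes did not pass either (adjusted p = 0.279).

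These levels were set beside 23 markers of gonad, gut, neuron and imaginal disc, tissues other than fat body, a comparison chosen after the values were seen. The median of the 23 markers per library was between 0.53 and 0.882 TPM in NL early, between 0.882 and 1.78 TPM in NL late and between 1.09 and 1.97 TPM in NL prepupal libraries. In ZI it was between 0.837 and 0.992 TPM, between 0.703 and 1.12 TPM and between 1.15 and 1.65 TPM at the same stages. All 23 markers had a higher group mean than grim in every group, and 19 to 23 of them had a higher group mean than rpr. Reads of rpr, grim and skl were therefore at or below the level at which genes of other tissues appeared in these libraries, and no expression in the fat body was read from them.

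The level of hid, which had 40 to 120 counts per library and thus passed the filter, was of the same size as those markers, 14 to 18 of which exceeded it in each group. Its CPM was 1.80, 2.22 and 2.30 in NL early, 1.70, 2.70 and 3.11 in NL late and 2.58, 2.70 and 3.44 in NL prepupal libraries. In ZI it was 1.88, 2.20 and 2.57 CPM early, 2.23, 2.30 and 2.59 CPM late and 2.80, 3.09 and 3.38 CPM in prepupae. Prepupal libraries were above early libraries in both populations, while late libraries overlapped with the early ones.

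From early to prepupal, hid differed by 0.47 ± 0.22 in NL and by 0.47 ± 0.22 in ZI on the log2 scale, neither of which passed the test (adjusted p = 0.0939 and 0.0922). Over the same interval the median log2 change of the 23 markers was 0.40 in NL and 0.24 in ZI. Without NL late replicate 1 both hid changes passed, at 0.59 in NL (adjusted p = 0.0161) and 0.60 in ZI (adjusted p = 0.0137), and from early to late in NL the value moved from 0.25 to 0.66 (adjusted p = 0.0142). This was not particular to that library, since the ZI change also passed at 0.60 without NL early replicate 1, 2 or 3, and the NL change at 0.59 without ZI early replicate 3 and at 0.67 with upper-quartile normalization (adjusted p = 0.0354). In these fits the median log2 change of all genes moved with hid, from 0.09 to between 0.20 and 0.29 in NL and from 0.03 to 0.16 in ZI. Populations did not separate in hid, with log2 differences of -0.08 to 0.08 at the 3 stages.

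The core of the machinery rose with development. From early to prepupal, 5 of the 6 members tested passed the test in each population, all of them upward, where 45.5% of all genes passed it in either direction in NL and 41.2% in ZI. Among all genes 2419 were up-regulated and 3251 down-regulated in NL, and 2249 and 2883 in ZI. That balance turned with upper-quartile normalization, to 3419 and 2815 in NL and 2830 and 2691 in ZI, and with library totals, to 5903 and 1846 in NL and 3931 and 1948 in ZI, whereas the 5 members were called upward in every alternative. The early and prepupal libraries of the members did not overlap for any of the 6, which held for 52.2% of all genes in NL and 49.9% in ZI. The median log2 change of the 6 members was 0.92 in NL and 0.92 in ZI, against 0.09 and 0.03 for all genes. The stage comparisons within a population share libraries, and their values are given side by side without being treated as separate evidence.

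The largest change was in Dark, the adapter of the apoptosome and the fly counterpart of mammalian Apaf-1. Its CPM in NL was 6.68, 9.21 and 10.7 in early, 29.8, 41.5 and 57.0 in late and 51.0, 56.1 and 69.0 in prepupal libraries. In ZI it was 7.50, 10.1 and 12.4 CPM early, 57.6, 67.5 and 76.7 CPM late and 52.1, 54.6 and 59.7 CPM in prepupae. All late and prepupal libraries were above all early ones, by a wide gap, and late and prepupal libraries overlapped.

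Dark was up-regulated 4.84-fold from early to late in NL (2.27 ± 0.22 on the log2 scale, adjusted p = 1.61e-07) and 6.73-fold in ZI (2.75 ± 0.23, adjusted p = 7.71e-09). From late to prepupal it changed by 0.45 ± 0.21 in NL (adjusted p = 0.166) and by -0.28 ± 0.21 in ZI (adjusted p = 0.39). Over the whole interval it rose 6.63-fold in NL and 5.55-fold in ZI. Among late libraries of NL, which were the most spread for this gene, leaving out replicate 3 gave a late-to-prepupal change of 0.72 that passed the test (adjusted p = 0.0224).

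The exons of Dark are overlapped by a gene on the opposite strand, asRNA:CR44390, which shares 2779 bases or 56.9% of them. This antisense gene averaged 348 counts per library, and its counts were 0.246 to 0.417 of those of Dark. It rose with Dark, by 2.50 ± 0.18 on the log2 scale from early to prepupal in NL (adjusted p = 8.13e-10) and by 2.33 ± 0.18 in ZI (adjusted p = 1.92e-09). Read pairs that matched several genes had been dropped, and whether pairs from the shared bases were among them depends on the use of strand in counting, which is not given in the sources used here. The split of reads between both genes is therefore uncertain.

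**Figure D2:**
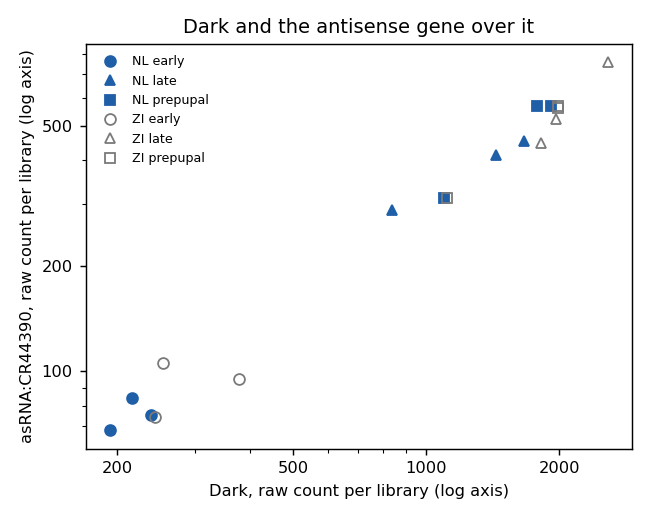
Raw counts of Dark (horizontal) and of asRNA:CR44390 on the opposite strand (vertical) in each of the 18 libraries, both on log axes, with NL filled and ZI open and a symbol for each stage. Early libraries had 68 to 106 counts of the antisense gene beside 193 to 377 counts of Dark, and both were higher in all late and prepupal libraries.

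Dronc, the apical caspase that Dark activates, rose in 2 steps of which the later was the larger in NL. In NL its CPM was 18.5, 19.2 and 25.0 in early, 27.8, 29.3 and 34.0 in late and 72.9, 79.4 and 91.7 in prepupal libraries. ZI libraries had 10.1, 11.0 and 13.3 CPM early, 19.4, 23.3 and 27.8 CPM late and 35.3, 41.6 and 50.2 CPM in prepupae. Each stage was above the one before it, without overlap, in both populations.

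The change of Dronc from early to late was 0.54 ± 0.16 in NL (adjusted p = 0.0119) and 1.04 ± 0.17 in ZI (adjusted p = 4.13e-05). From late to prepupal it was 1.42 ± 0.16 in NL (adjusted p = 4.79e-06) and 0.85 ± 0.16 in ZI (adjusted p = 0.00123). The whole rise was 3.89-fold in NL and 3.71-fold in ZI. The early-to-late call in NL was lost without NL late replicate 3 (0.45, adjusted p = 0.0595), while the later step was kept in both populations without any single library.

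Drice is the main executioner caspase of fly tissues. NL libraries had 30.6, 36.7 and 36.9 CPM early, 34.3, 39.6 and 39.8 CPM late and 44.0, 47.7 and 53 CPM in prepupae. In ZI the values were 25.9, 30.0 and 30.8 CPM early, 39.8, 44.3 and 48.1 CPM late and 40.2, 40.7 and 47.9 CPM in prepupae. The NL late libraries overlapped with the early ones, whereas those of ZI did not.

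Drice was up-regulated 1.39-fold from early to prepupal in NL (0.47 ± 0.12, adjusted p = 0.0032) and 1.49-fold in ZI (0.57 ± 0.12, adjusted p = 0.000669). In ZI it rose by 0.61 ± 0.12 from early to late (adjusted p = 0.00048), and in NL that change was 0.13 ± 0.12 (adjusted p = 0.402). The NL value depended on the fit, and it passed without NL early replicate 2 (0.34, adjusted p = 0.0387), without ZI early replicate 2 or 3 (0.28 each, adjusted p = 0.0472 and 0.0413), with upper-quartile normalization (0.34, adjusted p = 0.00152) and with library totals (0.70, adjusted p = 4.04e-06). With upper-quartile normalization the median of all genes moved from 0.14 to 0.34 over this step. From late to prepupal Drice changed by 0.35 ± 0.12 in NL (adjusted p = 0.0642), which likewise passed in 5 alternatives with values of 0.30 to 0.42, and by -0.04 ± 0.12 in ZI.

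The difference between the populations in the early-to-late change of Drice, -0.48 ± 0.17, did not pass the test (adjusted p = 0.0751). It ranged from -0.55 to -0.04 among the alternatives (adjusted p = 0.0255 to 0.833), passing without NL early replicate 3 (-0.53) or without ZI late replicate 1 (-0.55), and lying nearest to 0 with upper-quartile normalization (-0.18) and library totals (-0.04).

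Dcp-1, the effector caspase closest to Drice in function, lay well below it in level per length. The ratio of their TPM had a mean between 0.0705 and 0.135 in the 6 groups. Its CPM in NL was 1.90, 2.30 and 2.47 early, 3.09, 3.71 and 3.76 late and 3.84, 3.98 and 4.64 in prepupae. In ZI it was 1.74, 2.76 and 2.96 CPM early, 3.43, 3.60 and 4.20 CPM late and 4.53, 4.97 and 6.08 CPM in prepupae. Each stage was again above the one before it without overlap.

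Dcp-1 rose 1.86-fold from early to prepupal in NL (0.90 ± 0.20, adjusted p = 0.001) and 2.09-fold in ZI (1.06 ± 0.20, adjusted p = 0.000146). Its early-to-late change of 0.60 ± 0.20 in ZI (adjusted p = 0.0223) did not pass without ZI early replicate 1 (0.39, adjusted p = 0.154) or ZI late replicate 3 (0.51, adjusted p = 0.1) or with upper-quartile normalization (0.50, adjusted p = 0.0549). Its late-to-prepupal change in ZI of 0.46 ± 0.19 (adjusted p = 0.118) passed with upper-quartile normalization (0.67, adjusted p = 0.028) and library totals (0.69, adjusted p = 0.0358). The gene shares 239 exonic bases, 13.7% of its own, with pita on the opposite strand. The counts of pita, a zinc finger protein gene, exceeded those of Dcp-1 in every library but its change from early to prepupal was -0.01 ± 0.12 in NL and 0.13 ± 0.12 in ZI.

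The inhibitor rose alongside the caspases. Diap1 had 84.4, 91.0 and 115 CPM in NL early, 122, 128 and 138 CPM in NL late and 165, 187 and 205 CPM in NL prepupal libraries. In ZI it had 105, 124 and 140 CPM early, 191, 213 and 223 CPM late and 206, 214 and 215 CPM in prepupae. The 3 stages were separate in NL, whereas in ZI late and prepupal libraries overlapped and both were above the early ones.

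Diap1 was up-regulated 1.92-fold from early to prepupal in NL (0.94 ± 0.14, adjusted p = 8.19e-06) and 1.72-fold in ZI (0.78 ± 0.14, adjusted p = 7.42e-05). In ZI the rise lay between early and late (0.77 ± 0.14, adjusted p = 0.000136), followed by 0.02 ± 0.14 to the prepupa (adjusted p = 0.941). In NL it came in 2 steps, of 0.42 ± 0.14 (adjusted p = 0.0188) and 0.52 ± 0.14 (adjusted p = 0.0116). The later step in NL was lost without NL prepupal replicate 2 (0.44, adjusted p = 0.0676), and the earlier one when only NL early and late libraries were fitted (0.42, adjusted p = 0.0612), with RLE normalization (0.38, adjusted p = 0.0511) and with no filter on low counts (0.38, adjusted p = 0.0549). An antisense gene that covers 11.0% of its exonic bases, asRNA:CR45889, had at most 0.0281 of the counts of Diap1.

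Taking each step of development by itself, 4 of 6 members were up-regulated from early to late in NL and 5 of 6 in ZI, where 18.4% and 18.7% of all genes were. From late to prepupal, Dronc and Diap1 were the members up-regulated in NL and Dronc was the member up-regulated in ZI, where 7.68% and 3.64% of all genes were. In either direction, 5180 of the 12460 genes tested were called from early to late in NL and 4439 in ZI. From late to prepupal 1885 were called in NL and 1536 in ZI.

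**Figure D3:**
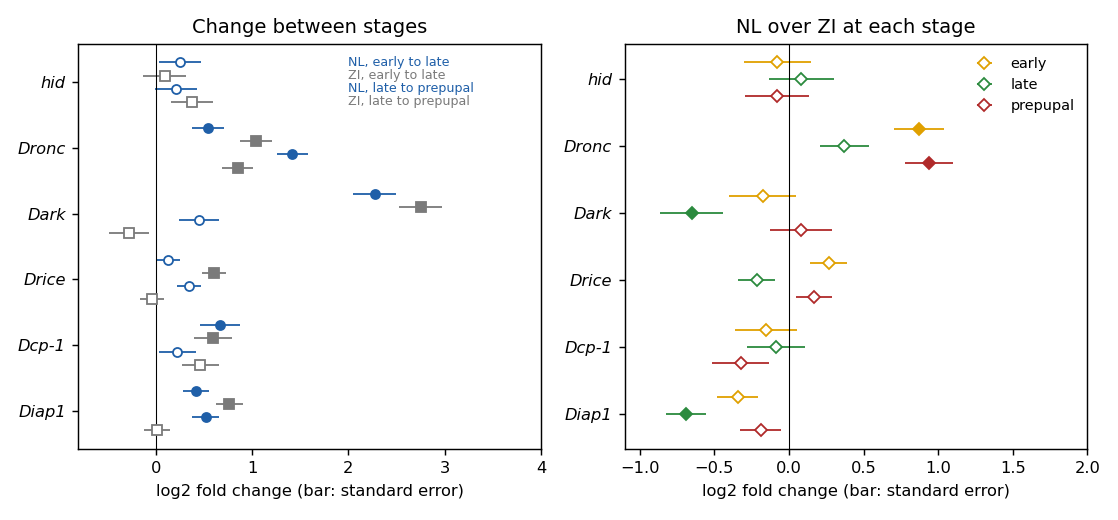
Log2 fold changes of the 6 members tested, with bars of 1 standard error, for each step of development (left, NL circles and ZI squares, early to late above late to prepupal within a gene) and for NL over ZI at each stage (right). Filled symbols passed an adjusted p under 0.05, among them Dronc at the early and prepupal stages and Diap1 and Dark at the late stage on the right.

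Between the populations, Dronc differed most. It was higher in NL in the early stage, by 0.87 ± 0.17 on the log2 scale or 1.83-fold (adjusted p = 0.00158), and in prepupae, by 0.94 ± 0.16 or 1.92-fold (adjusted p = 0.000741). At both stages all 3 NL libraries were above all 3 ZI libraries. It was the single member called at either stage, where 4.53% of all genes were higher in NL in early larvae and 2.66% in prepupae. In either direction 938 of the 12460 genes tested were called in early larvae and 592 in prepupae. Both calls of Dronc were kept in every alternative that was tried. At the late stage NL libraries began at 27.8 CPM and ZI libraries ended at 27.8 CPM, and the difference of 0.37 ± 0.16 did not pass (adjusted p = 0.0884). It passed without NL late replicate 1 (0.48, adjusted p = 0.0367), and likewise without NL early replicate 2, NL early replicate 3 or ZI early replicate 3 (0.42 each, adjusted p = 0.0398 to 0.0486), with upper-quartile normalization (0.59, adjusted p = 0.00418) and with library totals (0.67, adjusted p = 0.00246).

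At the late stage the members called were Diap1 and Dark, 2 of 6, both lower in NL, as were 14.1% of all genes. In either direction 3463 of the 12460 genes tested were called at this stage, so the count of 2 was not read as a result about the members. Diap1 was lower by 0.69 ± 0.14 on the log2 scale, or 1.61-fold (adjusted p = 0.00145), with 122 to 138 CPM in NL against 191 to 223 CPM in ZI, and this call was kept in every alternative. At the early stage Diap1 libraries overlapped and the difference was -0.34 ± 0.14 (adjusted p = 0.152), a call gained without NL early replicate 2 (-0.50, adjusted p = 0.0251), with upper-quartile normalization (-0.43, adjusted p = 0.0173) and with library totals (-0.50, adjusted p = 0.00805). In prepupae its NL libraries were again below those of ZI, with a difference of -0.19 ± 0.14 (adjusted p = 0.648). The antisense gene asRNA:CR45889 was likewise lower in NL late, with a difference of -1.19 ± 0.28 (adjusted p = 0.00459). It was also lower in NL early, where Diap1 was not called, with a difference of -1.13 ± 0.32 (adjusted p = 0.0326, up to 0.155 among the alternatives).

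Dark was lower in NL late by 0.65 ± 0.21, or 1.57-fold (adjusted p = 0.0267), with 29.8 to 57.0 CPM against 57.6 to 76.7 CPM. Without NL late replicate 1 the value was -0.36 and missed the test (adjusted p = 0.146). The test was also missed, with values still of -0.65 to -0.55, without NL late replicate 2, ZI late replicate 2, ZI late replicate 3, NL early replicate 1 or ZI early replicate 3 (adjusted p = 0.054 to 0.106) and when only the late libraries were fitted (-0.59, adjusted p = 0.101). It was missed as well with library totals (-0.32, adjusted p = 0.273) and upper-quartile normalization (-0.42, adjusted p = 0.135). The latter moved the median of all genes at this stage by 0.21 on the log2 scale, and the split of genes higher and lower in NL from 1711 and 1752 to 2441 and 885. At the early stage Dark differed by -0.18 ± 0.22 and in prepupae by 0.08 ± 0.21, and its libraries overlapped at both. The antisense gene asRNA:CR44390 was also lower in NL late, with a difference of -0.54 ± 0.16 (adjusted p = 0.0208, up to 0.335 among the alternatives).

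At the late stage the muscle markers summed to 61.6 to 99.2 TPM in NL against 26.9 to 34.3 TPM in ZI, and the neuron markers to 88.4 to 99.9 against 121 to 146 TPM. Most of the neuron sum was Syt1, with a group mean of 85.8 TPM in NL against 125 TPM in ZI. By group mean Syx1A was also lower in NL, whereas elav, nSyb, brp and repo were higher in NL.

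For Drice the population difference was 0.27, -0.22 and 0.17 on the log2 scale at the early, late and prepupal stages, and for Dcp-1 it was -0.16, -0.09 and -0.32, with overlapping libraries and no call. No member passed the test for a difference between populations in its change between stages. From early to late 0 of 6 passed, where 7.87% of all genes passed. From late to prepupal 0 of 6 passed, where 0% of all genes did, and from early to prepupal 0 of 6, where 1.48% did. For the interaction over all stages 0 of 6 passed, where 3.48% of all genes did, and DESeq2 called none of the 6 in any of these tests. At an unadjusted p under 0.05 the members were 2, 4, 0 and 3 of 6 in these tests. The share of all genes at that level was not obtained, so these counts have no background and nothing was read from them.

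Ratios of members within a library do not depend on the scaling between libraries. The TPM of Dronc over that of Diap1 was 0.241 to 0.251 in NL early, 0.242 to 0.318 in NL late and 0.445 to 0.552 in NL prepupal libraries. In ZI it was 0.102 to 0.109, 0.116 to 0.142 and 0.188 to 0.279 at the same stages. All NL libraries were above all ZI libraries of the same stage, and prepupal libraries were above larval libraries in each population.

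The ratio of Dark to Diap1 rose from a mean of 0.043 in NL early to 0.158 in NL late and 0.149 in NL prepupal libraries, and from 0.0383 to 0.151 and 0.124 in ZI. Early libraries were below all others, and NL and ZI overlapped at each stage. The group mean of Drice over Diap1 fell with stage, from 0.432 to 0.351 and 0.312 in NL and from 0.282 to 0.252 and 0.243 in ZI. Libraries of consecutive stages overlapped in both populations, and in ZI prepupal libraries overlapped with early ones too. Every NL library was above every ZI library of its stage. These ratios are descriptions chosen with the single-gene values known, and the use of the shorter length for Diap1 scales all of them by the same factor.

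**Figure D4:**
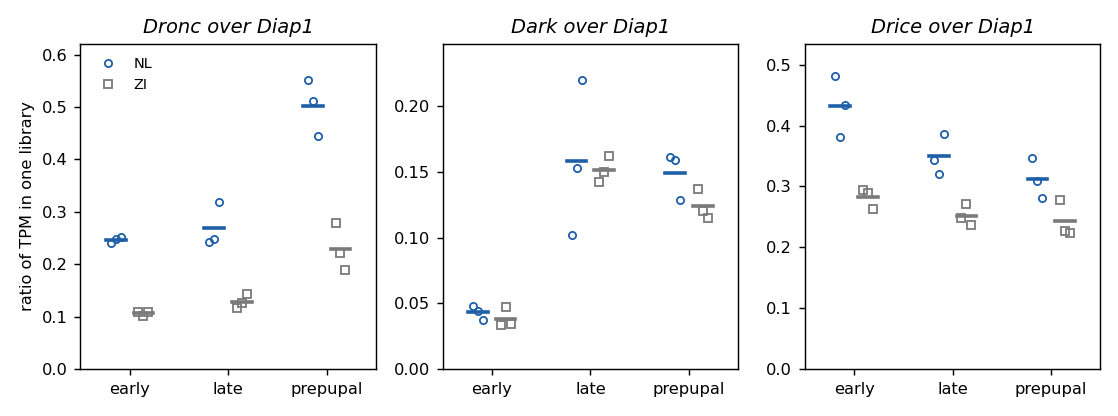
Ratio of the TPM of Dronc, Dark and Drice to the TPM of Diap1 within each library, by stage, on linear axes from 0, with NL as blue circles, ZI as grey squares and group means as bars. Dronc over Diap1 reached 0.445 to 0.552 in NL prepupal libraries against 0.188 to 0.279 in ZI, and Drice over Diap1 was higher in NL at each stage.

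The genes whose course over the 18 libraries was most like that of a member were sought among 10473 genes, by the root mean square difference of log2 CPM after centring each gene. For Dark the closest were drongo, NimC2 and Atg7, the enzyme that starts autophagosome conjugation, with differences of 0.16, 0.19 and 0.20. Dronc was followed by CG31633, CG30286 and the ferritin heavy chain gene Fer1HCH (0.25, 0.28 and 0.29). Diap1 was closest to Klp98A, a kinesin, and to the kinases Hipk and Akt (0.14, 0.15 and 0.15), and Dcp-1 to CG32264, CG17574 and eIF4G2 (0.15, 0.18 and 0.19). Of the distances from these 4 to the other members tested, that between Diap1 and Dcp-1 was the smallest (0.24), and those of Dark were at least 0.87.

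The other caspases did not share a direction. Strica, an apical caspase with a long prodomain, rose from early to prepupal by 0.58 ± 0.14 in NL (adjusted p = 0.00137) and by 1.39 ± 0.14 in ZI (adjusted p = 5.93e-08). It had 17.8, 20.2 and 23.6 CPM in NL early against 9.95, 10.5 and 12.6 CPM in ZI early libraries, a difference of 0.90 ± 0.14 (adjusted p = 0.000183) that lay close to that of Dronc. The change of Strica from early to late differed between the populations, by -1.24 ± 0.20 for NL minus ZI (adjusted p = 0.00131). For Dronc that difference was -0.50 ± 0.23, in the same direction, and did not pass (adjusted p = 0.138). Whether these genes differ from each other in this was not tested.

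Decay, an effector caspase, fell with stage where Drice and Dcp-1 rose. Its mean CPM dropped from 53.9 to 26.2 and 13.2 in NL and from 56.1 to 28.1 and 12.0 in ZI, a change from early to prepupal of -2.04 ± 0.22 (adjusted p = 1.06e-07) and -2.22 ± 0.22 (adjusted p = 3.81e-08). Dredd, the apical caspase of the Imd immune pathway, changed by -0.08 in NL and 0.21 in ZI, and Damm by 0.33 and 0.52, none of which passed the test. Thus of the 8 genes that code for caspases or their adapter, 5 rose and 1 fell in each population from early to prepupal, 6 of 8 called where 45.5% of all genes were in NL and 41.2% in ZI.

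**Figure D5:**
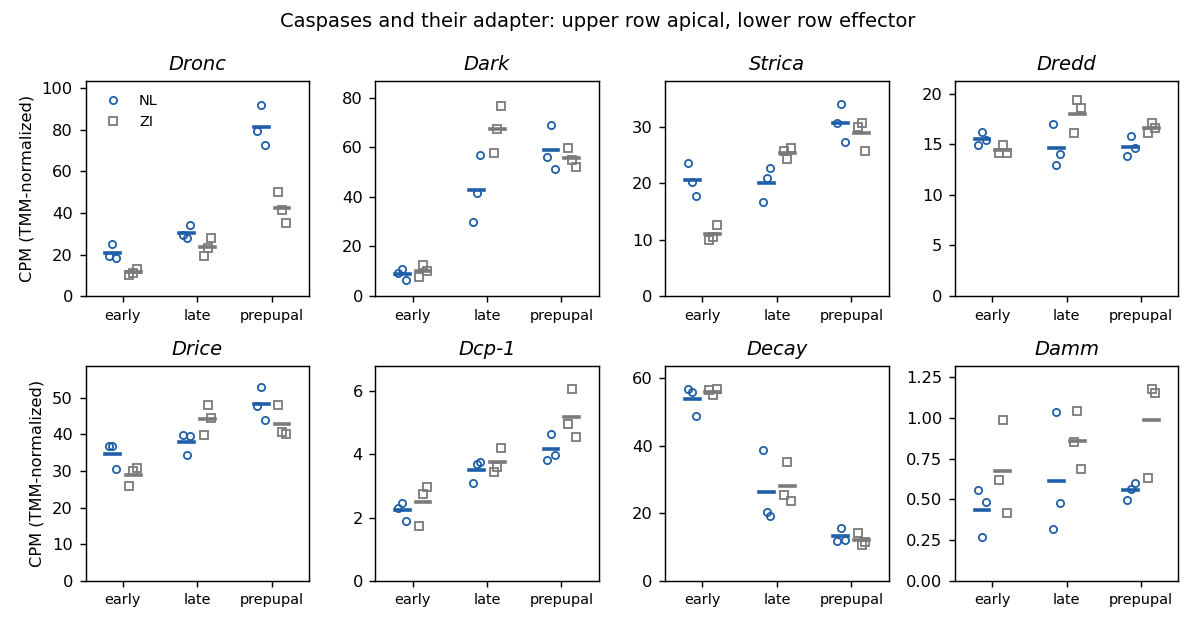
CPM (TMM-normalized, linear axes from 0) of the apical caspases and their adapter (upper panels) and of the effector caspases (lower panels) in each library, by stage, with NL as blue circles, ZI as grey squares and group means as bars. Decay fell from a mean of 53.9 to 13.2 CPM in NL and from 56.1 to 12.0 CPM in ZI while Dronc, Dark, Strica, Drice and Dcp-1 rose.

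Around the members, 50 further genes of cell death and its regulation were tested, of 51 on the lists. From early to prepupal 17 of the 50 rose and 10 fell in NL, and 19 rose and 10 fell in ZI, where 2419 of the 12460 genes tested rose and 3251 fell in NL, and 2249 and 2883 in ZI. The median log2 change of the 50 was 0.08 and 0.04, against 0.09 and 0.03 for all genes. Of the other IAP genes, Bruce changed by -0.40 in NL and -0.39 in ZI, and its direction in NL turned when library totals were used without scaling factors (0.14). The cytochrome c gene Cyt-c-p, whose mammalian counterpart is an activator of the apoptosome, fell by 2.39 on the log2 scale in NL and by 1.97 in ZI. Prx4, an endoplasmic peroxiredoxin also called Jafrac2, fell by 2.38 and by 2.04.

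In TNF, JNK and p53 signalling 4 of 11 genes rose and 1 fell in NL, and 5 rose and 1 fell in ZI, so that 5 and 6 of 11 were called against 45.5% and 41.2% of all genes. The ligand eiger (egr) fell by 1.47 on the log2 scale in NL and by 1.96 in ZI, while its receptor wengen (wgn) rose by 1.29 and 1.09 and the JNK phosphatase puckered (puc) by 1.07 and 0.66. Among 10 genes of DNA breakdown and engulfment, 5 rose and 1 fell in NL, and 6 rose and 1 fell in ZI, 6 and 7 of 10 called against the same shares of all genes. The one that fell was DNaseII, the lysosomal nuclease, with changes of -2.47 and -2.69, whereas Drep1, the inhibitor of the caspase-activated nuclease, rose by 1.61 and 1.32.

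Of 10 regulators of the ecdysone response listed for a part in larval cell death, 6 rose and 2 fell in each population. Thus 8 of 10 were called, where 45.5% of all genes were in NL and 41.2% in ZI. Eip93F, which is required for salivary gland death, rose by 3.72 in NL and 3.50 in ZI, the orphan receptor Hr3 by 3.53 and 3.12, and Eip75B by 2.05 and 2.06. Between the populations at the late stage 2 of the 50 non-member genes were higher and 13 lower in NL, where 13.7% of all genes were higher and 14.1% lower. In prepupae 0 of the 50 were called, where 592 of the 12460 genes tested were, and nothing was read from that count.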

How the data were processed

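The authors aligned the paired reads to FlyBase 6.21 transcripts with NextGenMap after ribosomal depletion, one reference serving both populations, dropped read pairs with ambiguous positions, and deposited unnormalized counts per gene. As a check, the paper also mapped the reads to a Zambian reference. It reported no significant difference between the populations in mapping bias, over coding or non-coding genes as a whole. No per-sample column was left unused (0). Genes with a mean of at least 15 counts were tested in edgeR 4.0.16 (R 4.3.3) by quasi-likelihood, with TMM normalization, a grouping factor of 6 levels, Benjamini-Hochberg adjustment over all genes tested and a threshold of 0.05. Every adjusted p is from this test unless another tool is named, and each SE was derived from the log2 fold change and its F value. CPM values were TMM-normalized. TPM used the gene lengths of the table and served to compare genes. The procedure was tested on simulated data.

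Groups came from the sample titles. Coordinates and overlaps were taken from the Ensembl annotation of the same assembly. The genes and lists were chosen with earlier results of these data known. The 9 members were always named, and from each list at most the 3 called genes with the largest change and the gene with the highest mean TPM, with further genes named where few were called. Genes of like pattern were sought for members tested whose group means spanned over 1 log2 CPM, with a prior count of 2. This search left out rpr and skl, which were not tested. Alternatives were upper-quartile and RLE normalization, DESeq2 1.42.0 with its size factors, no filter or at least 1 CPM in 3 libraries, a replicate block, a fit of only the groups compared, leaving out each library and, chosen after seeing the data, leaving out the 2 shallowest libraries and using library totals. Tables and figures used Python 3.11.15, numpy 2.4.6, scipy 1.17.1, pandas 2.3.3 and matplotlib 3.10.9.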

Additional observations from a re-analysis of the deposited data

Results flagged for a closer look

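The early-to-late change of Strica, an apical caspase outside the 9 genes, differed between the populations by -1.24 on the log2 scale (NL minus ZI, adjusted p = 0.00131), and this held in every alternative (-1.33 to -0.79, adjusted p at most 0.0444). Its early-to-prepupal change differed by -0.81 (adjusted p = 0.0369), with an adjusted p of up to 0.216 among the alternatives.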

How the results depend on the processing

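Of 2100 values of single members under the alternatives, 2047 kept their side of the threshold. Another 35 passed it where they had not before and 18 no longer did. No called value turned, whereas some values that were not called changed sign among the alternatives. For NL over ZI at the late stage Drice ranged from -0.28 to 0.07 and Dcp-1 from -0.15 to 0.21. Upper-quartile normalization and library totals each gave 2 members called between NL and ZI in early larvae in place of 1 and 2 from late to prepupal in ZI in place of 1. Upper-quartile normalization also gained Drice in both steps and hid from early to prepupal in NL, lost Dcp-1 from early to late in ZI, and at the late stage called Dronc in place of Dark, so that the count of 2 was unchanged. RLE normalization and no filter each lost Diap1 from early to late in NL. A fit of only the groups compared gave 1 between NL and ZI at the late stage in place of 2, and leaving out the 2 shallowest libraries, NL prepupal replicate 2 and ZI prepupal replicate 2, gave 1 from late to prepupal in NL in place of 2. Leaving out each library in turn gave 1 to 2 members called between NL and ZI early, 1 to 3 late and 1 in prepupae, 3 to 5 from early to late in NL and 4 to 5 in ZI, 1 to 3 from late to prepupal in NL and 1 in ZI, 5 to 6 from early to prepupal in each population, and 0 to 1 for the population difference in the early-to-late change. Bruce turned to 0.14 in NL with library totals. With a replicate block the members called were 1, 2 and 1 between populations and 5 from early to prepupal in each, as without it, and same-numbered replicates did not deviate together, with correlations of -0.391 to 0.426. Over all genes, fitting only the groups compared gave 1658 genes between NL and ZI at the late stage in place of 3463 and 1017 in prepupae in place of 592, DESeq2 gave 1579 for the population difference in the early-to-late change in place of 980 and 1036 for the interaction in place of 433, and library totals gave 8581 from early to late in NL in place of 5180. The fit of only the groups compared is not defined for the interaction. The counts of rpr, grim and skl limit what could be detected for them.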
